A study of Mus musculus with 15 samples.

Results

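The Ifi200 or PYHIN genes encode proteins with an amino-terminal pyrin domain, a carboxy-terminal HIN domain, or both, and in the mouse they lie side by side on chromosome 1. The 8 described here are Aim2, Ifi203, Ifi204, Ifi207, Ifi209, Ifi211, Ifi213 and Mndal, taken by symbol through their Ensembl gene identifiers. All 8 were among the 17712 genes with a normalized level, with none below the authors' filter on low counts. They were followed in whole subcutaneous tumours of MC38, a colon carcinoma line of the mouse, in C57BL/6 hosts. When tumours measured about 5 mm, a single 100 µL injection was made into each, and RNA was taken 24 h later. The injection held BO-112 (50 µg) with DMXAA (100 µg) in 4 tumours, BO-112 (50 µg) alone in 4, DMXAA (100 µg) alone in 4, and the vehicle, PBS with DMSO and glucose, in 3. BO-112 is poly I:C, a mimic of double-stranded RNA, bound to a carrier, and DMXAA activates the mouse form of the adaptor STING. All hosts were of 1 strain and all tumours came from 1 line. Per the labels, the tumours of a group are biological replicates.

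HIN domains bind double-stranded DNA and pyrin domains bind other pyrin domains. AIM2 uses both to couple DNA in the cytosol to the adaptor ASC (gene Pycard), which recruits caspase-1 (Casp1), and caspase-1 matures IL-1β and IL-18 and cleaves gasdermin D. The p204 protein (Ifi204) is often set beside human IFI16, a DNA sensor that works with STING, and several members of the family are known as interferon-inducible genes of myeloid cells. The DNA element through which type I interferon acts, the interferon-stimulated response element (ISRE), is a repeat of GAAA blocks in the promoters of many such genes.

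The promoters of the genes are shown first. RefSeq promoter windows (build GRCm38.p6, from 250 bases before to 50 after the start site) were found for 7 of the 8 genes, all but Ifi204, with 2 windows each for Ifi203 and Mndal. The authors' processing notes name the mm39 genome, so these positions are not those of the deposited counts. Each window was searched on both strands for the ISRE-like letters GAAANNGAAA. For the 7 genes, and for Ifi208 of the same cluster, a 40-base stretch that came closest to those letters is given 5′ to 3′ on the strand of the gene, the one nearest the start site where stretches tied. The compared 10 letters are in capitals, and where they read as TTTC blocks the likeness is on the opposite strand.
Aim2 (chr1:173420538-173420577, plus strand): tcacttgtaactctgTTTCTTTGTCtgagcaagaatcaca
Ifi209 (chr1:173630801-173630840, plus strand): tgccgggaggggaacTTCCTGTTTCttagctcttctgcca
Ifi203 (chr1:173942503-173942542, minus strand): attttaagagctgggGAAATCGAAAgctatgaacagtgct
Mndal (chr1:173880199-173880238, minus strand): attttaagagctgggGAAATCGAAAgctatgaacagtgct
Ifi207 (chr1:173741826-173741865, minus strand): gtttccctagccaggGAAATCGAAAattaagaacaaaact
Ifi211 (chr1:173913059-173913098, minus strand): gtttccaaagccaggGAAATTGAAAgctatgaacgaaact
Ifi213 (chr1:173599321-173599360, minus strand): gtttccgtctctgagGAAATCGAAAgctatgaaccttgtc
Ifi208 (chr1:173673592-173673631, plus strand): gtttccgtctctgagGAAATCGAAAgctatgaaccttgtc

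A full match stood in 5 of the 7 genes, Ifi203, Ifi207, Ifi211, Ifi213 and Mndal, against 3.99% of the 27025 genes with a window. Relative to the start site of the window, the first base of the match shown was at position -35 in Ifi203, -41 in Ifi207, -37 in Ifi211, -73 in Ifi213 and -36 in Mndal. In Ifi203 it stood in 1 of the 2 windows, and the other window reached 6 of the 8 fixed letters. The other window of Mndal held a full match on the opposite strand at position -54. The 40 bases shown were letter for letter the same in Ifi203 and Mndal, and those of Ifi213 were the same as those of Ifi208, a family gene outside the list. All 4 family genes outside the list that had a window also held a match, as did 12 of 21 type I interferon-stimulated genes with a window. Aim2 and Ifi209 reached 7 of the 8 fixed letters, a number reached or passed in 35.4% of all windows. In Ifi209 4 stretches tied at 7 letters, and the one at position -79 is shown beside the full match of the family gene Ifi214, which also begins at position -79, since 36 of their 40 letters were the same.
Ifi209 at -79 (chr1:173630765-173630804, plus strand): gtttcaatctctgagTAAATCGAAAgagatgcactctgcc
Ifi214 at -79 (chr1:173536012-173536051, minus strand): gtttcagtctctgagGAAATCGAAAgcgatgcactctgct
The letters of the interferon-γ element, TTCNNNGAA, were in none of the 7 genes and in 9.55% of all genes. The whole windows of Aim2, which did not pass any test below, and of Ifi213, which had the largest change of the 8 with BO-112 against vehicle, are printed for comparison, with the match in capitals.
Aim2 (chr1:173420354-173420653, plus strand): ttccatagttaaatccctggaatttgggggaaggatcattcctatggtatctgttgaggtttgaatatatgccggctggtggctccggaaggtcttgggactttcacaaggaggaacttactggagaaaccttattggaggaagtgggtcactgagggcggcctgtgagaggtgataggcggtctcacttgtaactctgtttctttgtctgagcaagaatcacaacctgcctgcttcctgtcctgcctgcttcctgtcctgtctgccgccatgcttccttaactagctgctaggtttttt
Ifi213 (chr1:173599223-173599522, minus strand): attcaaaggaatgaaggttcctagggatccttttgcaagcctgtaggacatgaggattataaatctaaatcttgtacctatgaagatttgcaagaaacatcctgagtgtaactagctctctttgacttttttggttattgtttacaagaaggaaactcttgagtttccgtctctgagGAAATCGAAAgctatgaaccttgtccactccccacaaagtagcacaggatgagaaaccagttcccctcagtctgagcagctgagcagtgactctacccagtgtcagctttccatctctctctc
The matches are a description of letters in these windows, and a link to the changes below was not tested. With BO-112 against vehicle the genes with a full match changed 3.97-fold (Ifi203), 3.11-fold (Ifi207), 6.26-fold (Ifi211), 6.92-fold (Ifi213) and 3.89-fold (Mndal). Those without changed 6.44-fold (Ifi209) and 1.05-fold (Aim2).

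The libraries held 12725316 to 19660511 reads on measured genes, and each member had at least 197 reads in every library. Levels are in CPM, read counts divided by the authors' scaled library sizes, and each log2 fold change is given ± its SE from 1 limma model of all genes, with Benjamini-Hochberg adjusted p and a threshold of 0.05. Some libraries stood apart. On the log2 scale each gene of a library was set against its mean over the other libraries. In DMXAA 2 and DMXAA 3 the median difference was 0.58 and 0.33 over the tenth of genes with the shortest transcripts. Over the tenth with the longest it was -0.52 and -0.31. Skeletal muscle genes were high in BO-112 1, DMXAA 1, DMXAA 3 and vehicle 2. In bulk tumours, fewer cells of a type and less RNA per cell cannot be told apart.

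Aim2, the inflammasome-forming DNA sensor of the family, lay between 13.2 and 21.6 CPM in all 15 tumours. It was measured at 16.2, 18.3, 15.1 and 20.0 CPM with both agents, 16.9, 18.3, 20.7 and 13.8 CPM with BO-112, 21.6, 16.4, 13.6 and 16.1 CPM with DMXAA and 16.9, 19.6 and 13.2 CPM with vehicle. The 4 groups overlapped throughout, with vehicle 3 the lowest tumour and DMXAA 1 the highest. Its log2 fold change was 0.08 ± 0.18 for both agents against vehicle, with a 95% interval of -0.31 to 0.48 and an adjusted p of 0.972. For BO-112 against vehicle the change was 0.08 ± 0.18 (interval -0.32 to 0.47, adjusted p = 0.847), and for DMXAA 0.03 ± 0.18 (interval -0.36 to 0.42, adjusted p = 0.936). With scaling by total count its BO-112 and DMXAA changes were -0.08 and -0.10. A change of Aim2 in either direction was therefore not detectable at this depth and number of tumours, and the intervals bound it below the changes measured for each of the other genes with BO-112.

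BO-112 alone raised the other 7 genes, and their median change was larger than with both agents or with DMXAA. Of the 8 members 7 were called higher in BO-112 tumours than in vehicle tumours, where 7.64% of all genes were called higher. The median log2 change was 2.26 over the 8 members and -0.04 over all genes. In each of the 7 the BO-112 tumours lay wholly above the vehicle tumours, as 18.1% of all genes did. The call was made for all 7 under every alternative processing tried.

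Ifi204, the gene of the p204 DNA sensor, was measured at 270.3, 285, 193 and 265 CPM with both agents, 420.2, 446, 403 and 410.2 CPM with BO-112, 213, 144, 121 and 195 CPM with DMXAA and 72.5, 92.9 and 56.4 CPM with vehicle. Each of the BO-112 tumours was above every other tumour, and the 4 groups followed each other without overlap except between DMXAA 1 and DMXAA 4 and the lowest tumour with both agents. Its log2 fold change was 2.53 ± 0.20 for BO-112 against vehicle, which is 5.79-fold (adjusted p = 2.2e-06).

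Ifi213 had the largest change of the 8 with BO-112. It was measured at 122, 149.7, 86.0 and 124 CPM with both agents, 197, 206, 169 and 187 CPM with BO-112, 86.5, 35.5, 33.7 and 54.5 CPM with DMXAA and 31.0, 35.4 and 18.6 CPM with vehicle. Vehicle 3 was the lowest tumour and BO-112 2 the highest, and DMXAA 2 and DMXAA 3 stood at about the level of the highest vehicle tumour. The log2 fold change of BO-112 against vehicle was 2.79 ± 0.29, or 6.92-fold (adjusted p = 1.9e-05).

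Ifi209 and Ifi211 changed by nearly as much. Ifi209 was measured at 222, 242, 152 and 185 CPM with both agents, 344, 367, 351 and 352 CPM with BO-112, 152, 84.3, 76.8 and 126 CPM with DMXAA and 57.4, 71.3 and 40.4 CPM with vehicle. Its BO-112 tumours were the most even of any group of the 8 genes, with a highest level 1.07 times the lowest. Ifi211 was measured at 173, 193, 137 and 140.0 CPM with both agents, 283, 298, 270.5 and 277 CPM with BO-112, 119, 84.7, 76.8 and 110.5 CPM with DMXAA and 52.2, 61.7 and 28.3 CPM with vehicle. The 4 groups of Ifi211 did not overlap, and its lowest tumour was again vehicle 3. With BO-112 the log2 fold change was 2.69 ± 0.23 for Ifi209 (adjusted p = 3.64e-06) and 2.65 ± 0.22 for Ifi211 (adjusted p = 3.56e-06).

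Mndal, Ifi203 and Ifi207 changed by less with BO-112. Mndal, named for its likeness to the human myeloid nuclear differentiation antigen, was measured at 207, 230.1, 165 and 171 CPM with both agents, 332, 374, 334 and 321 CPM with BO-112, 144, 99.5, 99.4 and 123 CPM with DMXAA and 92.6, 106 and 67.7 CPM with vehicle. Ifi203 was measured at 192, 256, 172 and 185 CPM with both agents, 345, 409, 328 and 337 CPM with BO-112, 163, 78.0, 75.0 and 129.9 CPM with DMXAA and 109, 103 and 63.3 CPM with vehicle. In both genes the DMXAA tumours reached into the range of the vehicle tumours, while the BO-112 tumours were the 4 highest of all. Ifi207 was measured at 161, 169, 123 and 167 CPM with both agents, 227, 239, 194 and 209.6 CPM with BO-112, 190.0, 68.3, 71.7 and 152 CPM with DMXAA and 75.8, 81.1 and 55.0 CPM with vehicle. In Ifi207, DMXAA 1 lay above and DMXAA 4 within the range of the tumours with both agents, and DMXAA 2 and DMXAA 3 lay among the vehicle tumours. The log2 fold changes of BO-112 against vehicle were 1.96 ± 0.17 for Mndal (adjusted p = 3.64e-06), 1.99 ± 0.26 for Ifi203 (adjusted p = 0.000117) and 1.64 ± 0.29 for Ifi207 (adjusted p = 0.00169).

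**Figure D1:**
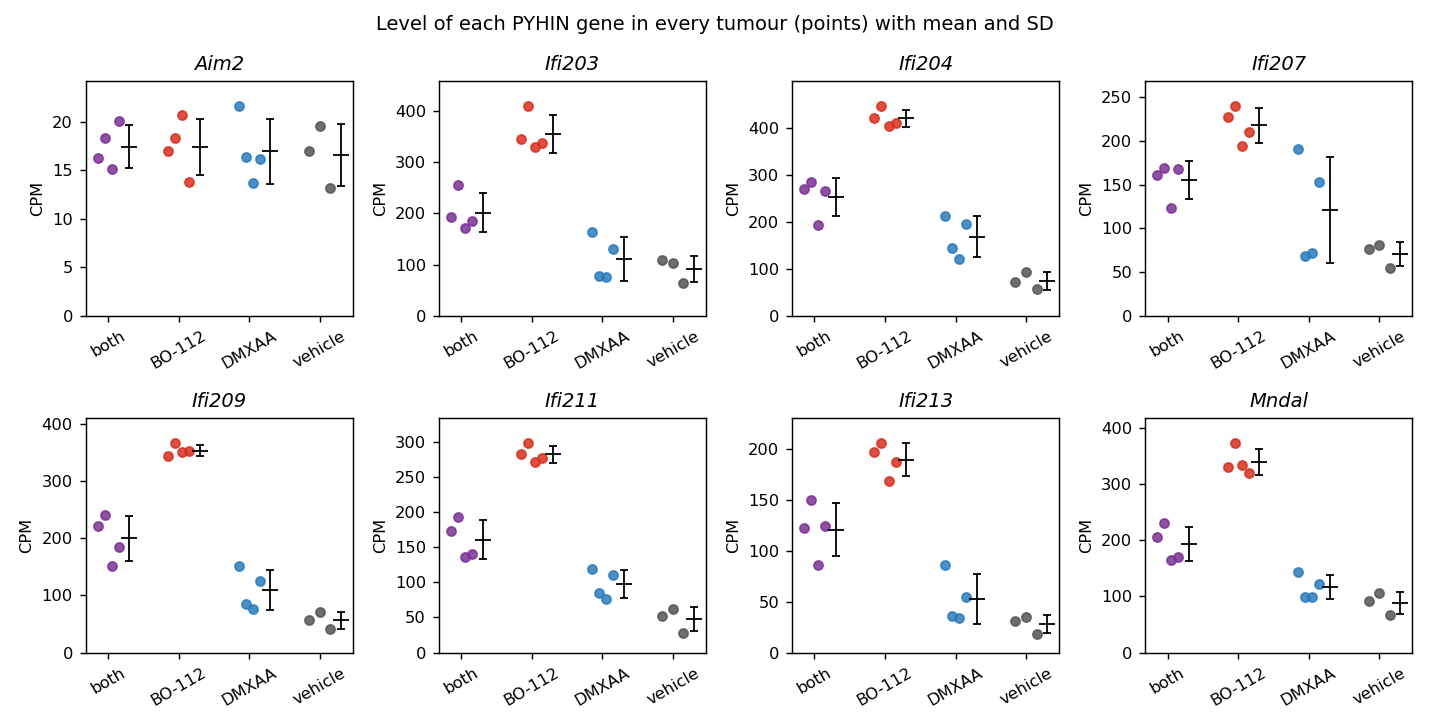
Level (CPM, linear axis from 0) of each of the 8 genes in every tumour, with both agents, BO-112, DMXAA and vehicle from left to right; each point is a tumour and the bars beside them are the mean and SD (n = 4, 4, 4 and 3). In 7 genes the BO-112 points lie above all others, and in Aim2 the 4 groups overlap between 13.2 and 21.6 CPM.

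DMXAA alone gave a smaller response, called in 2 of the 8 genes where 1.08% of all genes were called higher. These were Ifi204, with a log2 fold change of 1.18 ± 0.20 (2.27-fold, adjusted p = 0.0114), and Ifi211, with 1.09 ± 0.22 (2.14-fold, adjusted p = 0.0283). Ifi209 followed at 0.94 ± 0.23 and missed the threshold (adjusted p = 0.0646). In these 3 genes every DMXAA tumour lay above every vehicle tumour, as in 6.52% of all genes. The median over the 8 members was 0.74, against 0.01 over all genes. Ifi213 (0.83), Ifi207 (0.65), Mndal (0.40) and Ifi203 (0.24) had adjusted p of 0.194, 0.269, 0.255 and 0.589. The 7 genes were high in DMXAA 1 and DMXAA 4 and low in DMXAA 2 and DMXAA 3, the 2 libraries in which short transcripts were high, and the part of that in the result was not tested. No gene was called without vehicle 1 or without vehicle 3, where 0.136% and 0.277% of all genes were called higher. Without DMXAA 1, 1 was called (0.807% of all genes), and without DMXAA 2 and DMXAA 3, 5 were (1.9% of all genes).

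The 7 genes were also higher with BO-112 than with DMXAA. In BO-112 against DMXAA tumours all 7 were called higher, where 11.2% of all genes were, and their ranges did not overlap, as in 12.1% of all genes. The log2 difference was 1.96 ± 0.27 for Ifi213 (adjusted p = 0.000362), 1.75 ± 0.22 for Ifi209 (adjusted p = 0.000157) and 1.74 ± 0.24 for Ifi203 (adjusted p = 0.000298). It was smallest of the 7 in Ifi207, at 0.99 ± 0.27 (adjusted p = 0.0217). Ifi204, the member with the largest change with DMXAA, differed by 1.35 ± 0.19 (adjusted p = 0.000332).

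With both agents 6 of the 8 genes were called higher than with vehicle, where 2.49% of all genes were. The log2 fold changes were 2.11 ± 0.29 for Ifi213, 1.84 ± 0.23 for Ifi209, 1.82 ± 0.22 for Ifi211 and 1.79 ± 0.20 for Ifi204, with adjusted p of 0.000731, 0.00037, 0.00031 and 0.000166. Ifi203 reached 1.16 ± 0.26 (adjusted p = 0.0222) and Mndal 1.13 ± 0.17 (adjusted p = 0.0014). Ifi207 missed the threshold at 1.14 ± 0.29 (adjusted p = 0.0533), although it shared with the 6 a range wholly above that of vehicle, found in 9.92% of all genes. The median over the 8 members was 1.47, against -0.01 over all genes.

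In these 7 genes the mean level with both agents lay between those with either agent alone. Against BO-112 alone, all 7 genes other than Aim2 had a lower mean with both agents, with log2 differences of -0.50 (Ifi207) to -0.84 (Ifi209), and in each of the 7 the tumours with both agents lay wholly below the BO-112 tumours. That was the case for 6.11% of all genes. None passed the threshold in limma, where 0.0% of all genes were called lower, and the smallest adjusted p was 0.117 for Mndal, at -0.83 ± 0.16. At an unadjusted p under 0.05 there were 6 of the 8, as were 4.54% of all genes in that direction, and limma-voom on the recovered reads called 0, with 0.0% of all genes. The calls differed with the fit: a model of these 2 groups alone called 7, where 1.76% of all genes were called lower. Array quality weights called 5 (1.14% of all genes), and the fit without DMXAA 2 and DMXAA 3, which left the log2 differences as they were, called 4 (0.864% of all genes).

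Against DMXAA alone, both agents together gave higher levels of Ifi213, by 1.28 ± 0.27 (adjusted p = 0.0402), and of Mndal, by 0.73 ± 0.16 (adjusted p = 0.0414). These 2 of 8 stood beside 0.717% of all genes called higher. Ifi203, Ifi211 and Mndal did not overlap between these groups, as in 4.54% of all genes. Without DMXAA 1 or without DMXAA 4, the 2 high tumours of that group, 6 genes were called, where 5.53% and 4.85% of all genes were, and none was called in 10 of the 15 fits that left out 1 tumour.

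The interaction asks whether the log2 effect of DMXAA in BO-112 tumours equals its effect in vehicle tumours. It was negative in all 8 members, though 0.19 for Aim2 with scaling by total count, and past the threshold in 4 of them, where 1.15% of all genes were called lower. The median was -1.37 over the 8 members and 0.02 over all genes. In Ifi204 it was -1.93 ± 0.27 (adjusted p = 0.00541). Its parts were a DMXAA effect of -0.74 in BO-112 tumours and of 1.18 in vehicle tumours. Ifi211 had an interaction of -1.92 ± 0.31 (adjusted p = 0.0099), Ifi209 of -1.78 ± 0.32 (adjusted p = 0.0158) and Mndal of -1.22 ± 0.23 (adjusted p = 0.0193). The other 3 inducible genes had -1.51 ± 0.40 (Ifi213, adjusted p = 0.0767), -1.14 ± 0.40 (Ifi207, adjusted p = 0.198) and -1.07 ± 0.35 (Ifi203, adjusted p = 0.163). In Aim2 it was -0.02 ± 0.25, with an interval of -0.56 to 0.51 (adjusted p = 0.97). Without DMXAA 2 and DMXAA 3, 7 members were called, where 3.29% of all genes were called lower. With scaling by total count, which put the median of all genes at 0.23, 2 were, beside 0.395% of all genes.

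**Figure D2:**
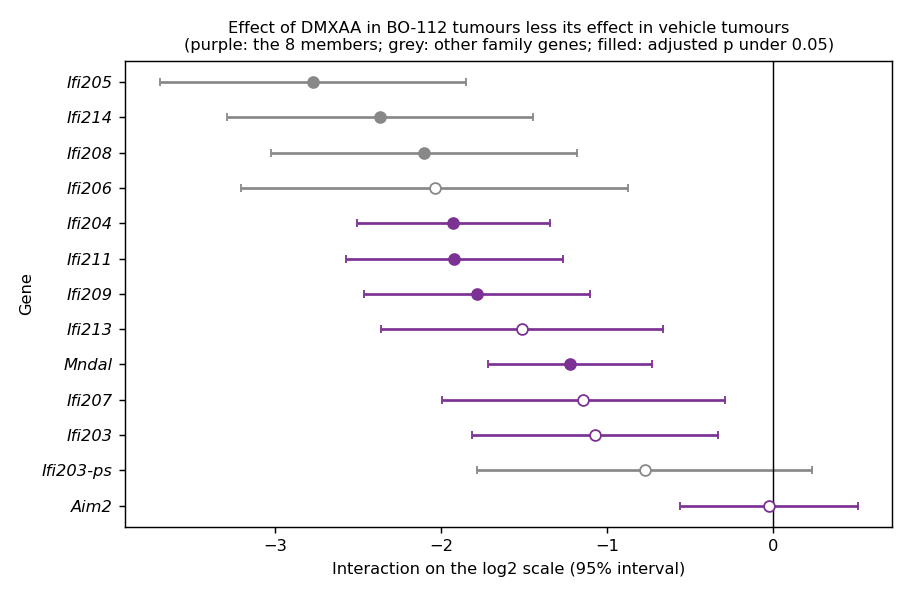
Interaction on the log2 scale with its 95% interval for the 13 measured family genes, the 8 members in purple and the other 5 in grey, ordered by value; filled points passed an adjusted p of 0.05. With the authors' scaling all lie below 0 (Aim2 at 0.19 with scaling by total count), and Aim2 is closest to 0 at -0.02. Of the 13, 7 are filled, where 1.15% of all genes were called lower.

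Other family genes of the cluster were also higher with BO-112. The other 5 measured family genes were Ifi205, Ifi206, Ifi208, Ifi214 and the pseudogene Ifi203-ps. In BO-112 against vehicle tumours all 5 were called higher, where 7.64% of all genes were. Their log2 fold changes were 3.98 ± 0.32 for Ifi205 (adjusted p = 2.2e-06), 3.39 ± 0.32 for Ifi214, 3.30 ± 0.40 for Ifi206, 3.15 ± 0.32 for Ifi208 and 1.90 ± 0.35 for Ifi203-ps. Ifi205, whose protein p205 is known from mouse macrophages to control the level of ASC mRNA, was measured at 143, 169, 104 and 102 CPM with both agents, 263, 344, 278 and 270.3 CPM with BO-112, 96.7, 36.3, 41.3 and 61.8 CPM with DMXAA and 22.8, 23.6 and 11.1 CPM with vehicle. That made it the most strongly changed gene of the family, 15.8-fold with BO-112 and 6.96-fold with both agents. DMXAA alone was called in Ifi205 (1.59 ± 0.32, adjusted p = 0.0247) and Ifi214 (1.57 ± 0.32, adjusted p = 0.0267), beside 1.08% of all genes called higher. With both agents 4 of the 5 were called against vehicle, all but Ifi203-ps, beside 2.49% of all genes called higher. The interaction was called in Ifi205 (-2.77 ± 0.43), Ifi214 (-2.37 ± 0.43) and Ifi208 (-2.11 ± 0.43), beside 1.15% of all genes called lower.

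The order of the measured family genes along chromosome 1 was Aim2, Ifi206, Ifi214, Ifi213, Ifi209, Ifi208, Ifi207, Ifi204, Ifi203-ps, Mndal, Ifi211, Ifi203 and Ifi205. Ifi202b, a family gene that was not measured, lay between Ifi203 and Ifi205. Cadm3, a cell adhesion gene, lay before Aim2. Aim2 at the Cadm3 end was the sole measured family gene not called with BO-112, and the next family gene in this order, Ifi206, changed by 3.30 ± 0.40 (adjusted p = 7.31e-05). Cadm3 had 1.02 ± 0.44 (adjusted p = 0.153).

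**Figure D3:**
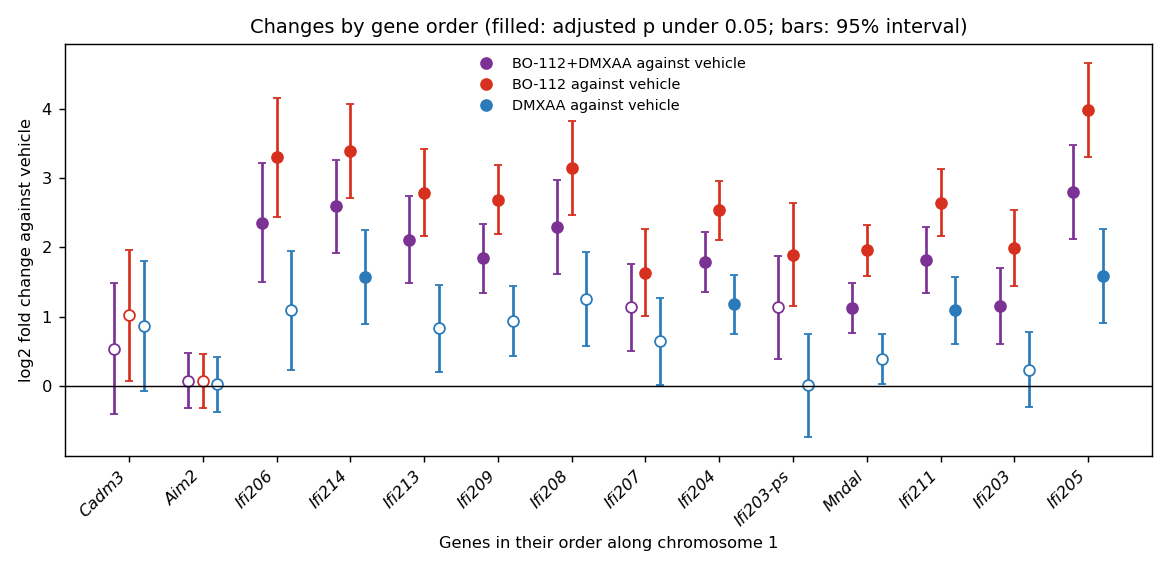
Log2 fold change against vehicle with its 95% interval for the 13 family genes and the flanking gene Cadm3 in their order along chromosome 1, for both agents (purple), BO-112 (red) and DMXAA (blue); filled points passed an adjusted p of 0.05. Aim2 lies close to 0 for all 3 while the next family gene, Ifi206, lies at 2.35 with both agents and 3.30 with BO-112.

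The split of reads between these paralogs is uncertain to a degree that differs by gene. Of all stretches of 100 bases in their annotated transcripts, 56.9% of those of Ifi211 also occurred in another gene, with 37.2% in Ifi205. The share was 16.9% in Ifi209, all of it with Ifi214, 10.7% in Ifi204, 6.38% in Mndal, 3.30% in Ifi213, 2.84% in Ifi203, 0.79% in Ifi207 and 0.0% in Aim2. Reads are pairs of 150 bases, and how the authors' counting treated reads with more than 1 match is not given in the sources used here. Ifi207, with little shared sequence, had a log2 change of 1.64 with BO-112, and Ifi213 had 2.79. Only identical stretches were counted as shared, and the part of shared reads in the changes was not tested. Exons of Ifi203 and Mndal overlapped by 37 bases on the same strand.

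The shares of the genes in the family's summed level differed between groups, without a test. The 8 levels summed to 1301 ± 209 CPM with both agents, 2175 ± 128 CPM with BO-112, 794 ± 248 CPM with DMXAA and 474 ± 118 CPM with vehicle (SD). Aim2 took 1.36 ± 0.20% of that sum with both agents, 0.80 ± 0.14% with BO-112, 2.21 ± 0.41% with DMXAA and 3.53 ± 0.27% with vehicle. Ifi204 took 19.5 ± 1.2% with both agents, 19.3 ± 0.27% with BO-112, 21.5 ± 1.7% with DMXAA and 15.7 ± 1.2% with vehicle. Ifi203 took 15.5 ± 1.3% with both agents, 16.3 ± 0.71% with BO-112, 13.8 ± 1.0% with DMXAA and 19.3 ± 1.9% with vehicle. Shares of CPM depend on transcript length. Per kilobase of the median annotated transcript, Mndal had the highest mean level of the 13 family genes in BO-112 tumours, 380 ± 26 CPM per kb, and in vehicle tumours, 99.2 ± 22 CPM per kb, and Ifi214 the lowest, 6.61 ± 0.73 CPM per kb with BO-112 and 0.62 ± 0.12 CPM per kb with vehicle. Aim2 ranked 10 of 13 with BO-112 and 2 of 13 with vehicle on this scale, but its median transcript is 383 bases and its longest 2839. By the longest transcript it ranked 12 of 13 with BO-112 and 10 of 13 with vehicle, and Mndal ranked 2 of 13 with BO-112.

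Across the 15 libraries the 7 inducible genes varied together. Pearson's r of log2 CPM between any pair of them was 0.91 to 0.99 (21 pairs, median 0.97), and 0.73 to 0.97 after group means were removed. Aim2 had r of 0.30 to 0.44 with the 7, and 0.60 to 0.72 after group means were removed. These are descriptions over 15 libraries that share groups, depth and the scaling of each library, and pairs with shared sequence share reads. Among 12581 protein-coding genes with a mean of at least 1 CPM, members apart, those most like Ifi204 were Sp100 (r = 0.988), Il1rn (0.988) and Ifi208 (0.986). For Ifi209 they were Trim30a (0.994), Il1rn (0.994) and Ifi205 (0.993), and for Ifi211 Ifi205 (0.992), Ifit3b (0.991) and Ifit3 (0.991). For Ifi213 they were Trim30a (0.987), Ifi208 (0.986) and Oas2 (0.985), and for Mndal Daxx (0.992), Sp140 (0.992) and Trim25 (0.992). Ifi203 was most like Cflar (0.987), N4bp1 (0.986) and Mx1 (0.981), and Ifi207 most like Irak3 (0.979), H2-T24 (0.977) and Ptafr (0.972). Slamf7 (0.982), Ifi208 (0.981), Slfn5 (0.980), Trafd1 (0.980) and Slfn8 (0.978) came closest to the mean of the 8.

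Aim2 was again apart, with Cd27 (r = 0.874), a lymphocyte gene, and Tgm2 (0.826) among its nearest genes. The 8 T cell markers, among them Cd3e, Cd4 and Cd8a, were all above 0 in every library and summed to 40.6 to 76.0 CPM with both agents, 43.9 to 73.7 CPM with BO-112, 66.0 to 123 CPM with DMXAA and 40.2 to 94.1 CPM with vehicle. Their mean log2 CPM and Aim2 had a Pearson r of 0.59 (permutation p = 0.0224) and a Spearman rho of 0.56 (permutation p = 0.0339) over 15 tumours. Of 16 gene lists set against Aim2 in this way, none passed after Benjamini-Hochberg adjustment, the T cell list having 0.125 for r and 0.181 for rho by permutation. Without the 2 tumours farthest from the median of the T cell list r was 0.32. Leaving these out narrows the range of the list, so the lower r does not tell whether the relation rests on them. After group means were removed r was 0.80. The T cell list was not alone in its relation to Aim2. The inflammasome list had r = 0.58, 0.44 without its 2 farthest tumours, and 0.84 after group means were removed. For 6 endothelial markers these were 0.58, 0.52 and 0.57. Each of these 2 lists had an adjusted permutation p of 0.125 for r. The DNA sensing list had r = 0.40, and 0.74 after group means were removed.

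**Figure D4:**
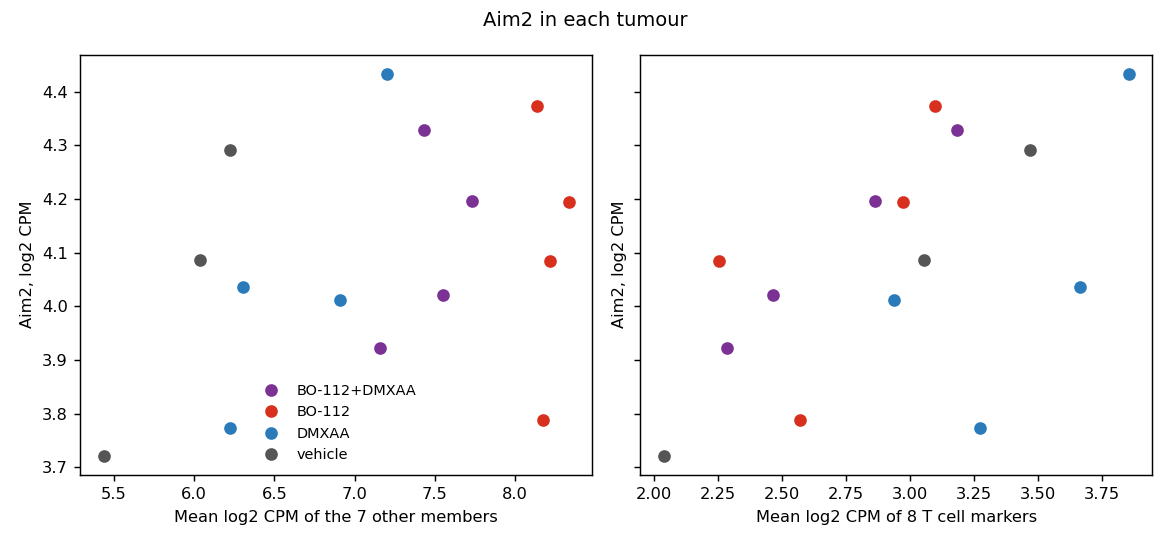
Aim2 (log2 CPM) in each of the 15 tumours against the mean log2 CPM of the 7 other members (left) and of 8 T cell markers (right); colours give the group. On the left the groups are spread along the horizontal axis at like heights, and on the right r is 0.59 over all tumours and 0.32 without the 2 farthest from the median of the marker list.

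Genes that work with the family were followed as lists. Of 19 genes of inflammasomes and pyroptosis, all measured, 11 were higher and 1 was lower in BO-112 against vehicle tumours. Of all genes 7.64% were called higher there and 4.31% lower. The list's median log2 change was 0.85. Pycard, which encodes the ASC adaptor of AIM2, had -0.02 ± 0.26 (adjusted p = 0.977). Casp1 rose by 1.04 ± 0.15 (adjusted p = 0.00035) and Casp4, the caspase that senses cytosolic lipopolysaccharide, by 1.42 ± 0.13 (adjusted p = 3.95e-06). Ninj1, which ruptures the membrane of dying cells, rose by 1.56 ± 0.15 (adjusted p = 1.14e-05), and Zbp1, a sensor of Z-form nucleic acid, by 1.47 ± 0.19 (adjusted p = 0.000142). Gsdmd, the pore-forming substrate, rose by 0.75 ± 0.11 (adjusted p = 0.000295). Of the cytokines Il1b rose by 1.78 ± 0.42 (adjusted p = 0.0115) and Il18 by 0.87 ± 0.25 (adjusted p = 0.0367). The gene that fell was Nlrp1b, at -2.03 ± 0.31 (adjusted p = 0.000576). With both agents 5 of the 19 were higher, Casp1, Casp4, Naip2, Ninj1 and Zbp1, and with DMXAA alone 2, Casp1 (0.73 ± 0.15) and Ninj1 (0.75 ± 0.15). The shares of all genes called higher were 2.49% with both agents and 1.08% with DMXAA.

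Of 14 measured genes of cytosolic DNA sensing, 6 were higher and 1, Enpp1 (-1.08 ± 0.29, adjusted p = 0.0234), was lower with BO-112, with a median of 0.39. Among all genes 7.64% were called higher and 4.31% lower with BO-112. Ifnb1, the interferon-β gene, rose by 5.70 ± 0.42 (adjusted p = 1.38e-06), Irf7 by 2.99 ± 0.26 and the kinase gene Ikbke by 1.34 ± 0.21. The sensor gene Cgas had 0.21 ± 0.22 (adjusted p = 0.624) and the STING gene Tmem173, the target of DMXAA, had -0.37 ± 0.15 (adjusted p = 0.13). With both agents Ifnb1 rose by 3.64 ± 0.42, Irf7 by 2.18 ± 0.26 and Ikbke by 1.05 ± 0.21, the 3 called of the 14, beside 2.49% of all genes. With DMXAA alone Irf7 was the 1 gene called, at 1.48 ± 0.26 (adjusted p = 0.0136), beside 1.08% of all genes called higher. Ifnb1 had 1.28 ± 0.42 (adjusted p = 0.168).

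The 30 type I interferon-stimulated genes had median changes in the order BO-112, both agents and DMXAA. With both agents 27 were called higher than with vehicle (median 1.64), with BO-112 30 (median 2.23) and with DMXAA 10 (median 0.78), and 20 were called lower in the interaction (median -1.51). Among all genes 2.49% were called higher with both agents, 7.64% with BO-112 and 1.08% with DMXAA, and 1.15% lower in the interaction. Isg15 had log2 changes of 1.99 ± 0.20 with both agents, 2.89 ± 0.20 with BO-112 and 1.34 ± 0.20 with DMXAA, and Usp18, the brake on the interferon receptor, had 2.08 ± 0.18 with both agents, 2.98 ± 0.18 with BO-112 and 1.20 ± 0.18 with DMXAA.

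Marker lists of the cells that could carry these transcripts were summed in each tumour. The 9 macrophage markers summed to 2833 to 3565 CPM with both agents, 2877 to 3387 CPM with BO-112, 2872 to 5662 CPM with DMXAA and 2690 to 3351 CPM with vehicle, so that BO-112 and vehicle tumours overlapped, with 1 marker called higher and 2 lower. Among all genes 7.64% were called higher and 4.31% lower with BO-112 against vehicle. The 7 monocyte markers summed to 606 to 778 CPM with both agents, 760 to 838 CPM with BO-112, 551 to 1166 CPM with DMXAA and 493 to 765 CPM with vehicle, with 3 higher and 1 lower with BO-112. The 8 neutrophil markers summed to 197 to 417 CPM with both agents, 501 to 564 CPM with BO-112, 105 to 242 CPM with DMXAA and 134 to 188 CPM with vehicle, with 4 of 8 called higher with both agents, 4 with BO-112, and 2 higher and 1 lower with DMXAA. The shares of all genes were 2.49% higher with both agents, and 1.08% higher and 0.169% lower with DMXAA. More than any other marker, Clec4e, an innate immune receptor gene, made up the sum with BO-112, with means of 105 CPM with both agents, 306 CPM with BO-112, 18.5 CPM with DMXAA and 4.34 CPM with vehicle. The median log2 change over the 8 markers had another order, 3.01 with both agents, 1.73 with BO-112 and 2.16 with DMXAA, and S100a9 averaged 37.1 CPM with both agents, 12.5 CPM with BO-112, 22.0 CPM with DMXAA and 0.53 CPM with vehicle. At most 1 neutrophil marker was at 0 in a library. The part of these cells in the result was not tested. The 3 measured of 5 epithelial markers summed to 9.26 to 27.0 CPM with both agents, 6.57 to 11.6 CPM with BO-112, 14.5 to 40.4 CPM with DMXAA and 27.5 to 85.3 CPM with vehicle. With BO-112 against vehicle 2 of the 3, Cdh1 and Epcam, were called lower (median of the 3, -2.26). The remaining marker had a positive change and was not called, so the 3 did not fall as a set.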

How the data were processed

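Messenger RNA of 15 tumours was sequenced with a stranded kit and paired reads of 150 bp, per the labels' protocols. STAR, edgeR, limma and the mm39 genome are named in the submitters' processing notes, and the annotation and the counting step are not given in the sources used here. The deposited table used holds log2 CPM, which are counts scaled by the authors to library size with a factor per library (0.85 to 1.08), for the 17712 genes the authors kept. With 0.5 reads taken off, 100% of its values gave whole reads within a tolerance of 1e-06. A raw count table names no samples, and its 15 per-sample columns were not used. Symbols came from GENCODE release M21 by gene identifier, for 17636 genes.

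With R 4.3.3 and limma 3.58.1, the deposited log2 values of the 15 libraries were modelled by a mean per group, with a variance trend and robust moderation, and p was adjusted by Benjamini-Hochberg over all 17712 genes. The interaction is the difference of both agents from BO-112 less that of DMXAA from vehicle. The fit was tested on simulated data. The 8 members and the gene lists were chosen with earlier results of these data known. Named were every family gene, fixed pathway genes, the 3 genes of lowest adjusted p in each list, and the 3 genes most like each member; a few of these are not reported here. Replicate numbers did not pair the tumours. Alternatives were 2 other scalings, a filter, 2 reads added, limma-voom, array weights, 2-group fits, a replicate block, and leaving out libraries. Intervals are those of the model at 95%. Counting error is small at the depths of the members.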

Additional observations from a re-analysis of the deposited data

Results flagged for a closer look

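The 13 measured family genes in the groups of 4 tumours gave 39 sets of values, and in 1 of them a tumour stood apart from the rest of its group, where chance alone flags about 1 in 20. This was BO-112+DMXAA 3 for Ifi207, the lowest of its group at 123 CPM, with a gap to the next tumour of 0.859 of the range of the group. Ifi207 and Aim2 were the 2 members not called with both agents against vehicle.

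The effect of DMXAA differed between BO-112 tumours and vehicle tumours, by the test of the interaction itself, in 7 family genes. Among all genes 1.15% were called lower by that test. The interaction on the log2 scale was -1.93 for Ifi204, -1.92 for Ifi211, -1.78 for Ifi209 and -1.22 for Mndal among the members. Among the other family genes it was -2.77 for Ifi205, -2.37 for Ifi214 and -2.11 for Ifi208.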

How the results depend on the processing

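No called member reversed its direction under any alternative tried. Of 1392 values of single members under the alternatives, 1280 stayed on their side of the threshold, 58 lost the call and 54 gained it. The 7 members called with BO-112 against vehicle were 7 in every alternative. At the threshold of 0.05, 4.78% (without the muscle-rich libraries) to 15.1% (array quality weights) of all genes were called higher there. With DMXAA against vehicle the 2 called members became 0 at an adjusted p of 0.01. Scaling by total count called 1, where 0.474% of all genes were called higher, and array quality weights called 4 (1.75%). The 2-group fit called 0 (0.0226%), and the fit without the 4 muscle-rich libraries called 1 (0.13%). Without DMXAA 2 and DMXAA 3 there were 5 (1.9%), and with each tumour left out 0 to 3 (0.136% to 1.47%). For both agents against BO-112 the 0 became 5 with array quality weights (1.14% of all genes called lower) and 7 in the 2-group fit (1.76%). It became 4 without DMXAA 2 and DMXAA 3 (0.864%). When each tumour was left out it was 0 to 1, with 1 without DMXAA 2 (0.13%). For both agents against DMXAA the 2 became 0 at an adjusted p of 0.01. They were also 0 with total count (0.57% of all genes called higher), with array quality weights (0.615%) and in the 2-group fit (0.0169%). The same held without the muscle-rich libraries (0.00565%) and without DMXAA 2 and DMXAA 3 (0.0226%). When each tumour was left out they were 0 to 6 (0.0% to 5.53%). The 4 of the interaction became 2 at an adjusted p of 0.01 and 2 with total count (0.395% of all genes called lower). They became 7 with array quality weights (2.81%) and 7 without DMXAA 2 and DMXAA 3 (3.29%). When each tumour was left out they were 3 to 5 (0.361% to 2.12%). Both agents against vehicle gave 5 to 7 when each tumour was left out (1.34% to 3.81% of all genes called higher). BO-112 against DMXAA gave 6 to 7 (6.39% to 16.8%). The cause of these moves was not tested. With the replicate block the counts against vehicle were 7 for both agents (2.54% of all genes called higher), 7 for BO-112 (6.9%) and 3 for DMXAA (1.36%). They were 0 for both agents against BO-112 (0.0% called lower), 3 for both agents against DMXAA (0.779% called higher) and 7 for BO-112 against DMXAA (11.6% called higher). The interaction had 5 (1.46% called lower). Tumours of 1 number did not deviate together, since their mean correlation was 0.02 (21 pairs) and that of unlike numbers was -0.01 (63 pairs). The 2-group fit has no counterpart for the interaction. Scaling by total count put the median of all genes at -0.20 with BO-112 and -0.11 with DMXAA against vehicle, 0.10 for both agents against BO-112 and 0.23 for the interaction.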
